A study of Mus musculus with 6 samples.

Results

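The 42 genes described here encode the proteins that license replication origins, unwind DNA and copy it at the fork, together with the enzymes that make its deoxynucleotides. They were taken by gene symbol from a table of 18853 genes, all 42 were found, and all 42 passed the filter on low counts, which left 13696 genes to be tested. RNA had been sequenced from mouse bone marrow cells labelled BMSC, the usual short form for bone marrow stromal cells, grown in αMEM with 10% serum. No label says that the cultures were induced to form bone. One group held 3 wild-type (WT) samples (replicates 10, 11 and 12) and the other 3 samples labelled HRP2-KO (replicates 6, 7 and 44), in which the gene for HRP2 (HDGFR2, listed as Hdgfl2) had been knocked out. Age, sex, strain, the part of the gene removed and any pooling of animals were not given in the sources used here. No label ties a sample to its own animal or dish, so a p-value here measures only how far these samples spread, which may be technical. No batch is labelled, so a batch and the genotype cannot be told apart.

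Before a cell copies its DNA, the origin recognition complex (ORC) marks origins, and Cdc6 and Cdt1 load the ring of Mcm2 to Mcm7 onto them, a step that geminin (Gmnn) blocks once it has happened. Cdc45 and the GINS complex then turn the loaded ring into a moving helicase, the clamp loader RFC places the PCNA clamp, and the polymerases copy both strands. Many of these genes are transcribed late in G1 and in S phase under E2F transcription factors, while some subunits are kept at a steady level through the cycle. Marrow stromal cells divide in culture, and their replication genes are widely read as a sign of cycling cells.

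Each library held between 20184473 and 20680779 estimated counts. Hdgfl2 stood at 51.4 to 58.2 CPM (counts scaled to library size with TMM factors) in WT and at 5.56 to 11.8 CPM in HRP2-KO. Stromal markers were present in every library, with 10 of 10 at 1 CPM or more throughout and a summed level of 5469 to 10510 CPM in WT and 22250 to 28830 CPM in HRP2-KO. The collagen genes Col1a1 and Col1a2 made up most of that sum in HRP2-KO and were the only 2 of the 10 with every HRP2-KO library above WT. Pdgfra, Eng, Thy1 and Cxcl12 had fitted log2 fold changes of -1.80, -1.52, -1.36 and -0.90, with groups that overlapped. All 12 macrophage markers were present too, and their sum was 10350 to 26530 CPM in WT, 14900 CPM in HRP2-KO replicate 7, and 1330 and 2620 CPM in its replicates 6 and 44. Of 5 endothelial markers 4 stayed below 1 CPM in every library, as did 6 of the 9 listed genes of other blood cells. HRP2-KO replicate 7 stood apart from the rest of its group: its log2 CPM correlated at 0.894 and 0.869 with HRP2-KO replicates 6 and 44 and at 0.923 to 0.944 with the WT libraries, while replicates 6 and 44 correlated at 0.962. HRP2-KO replicate 44 differed from replicate 6 by transcript length, with genes under 2 kb higher by a median of 0.44 and genes of 3 kb and over lower by a median of 0.28 on the log2 scale (-0.28). Results are therefore also given without replicate 7 or without replicate 44, and the part of these differences in the results was not tested.

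Replication genes were higher in HRP2-KO than in WT with few exceptions. Of the 42 genes, 41 had a fitted log2 fold change above 0 against 51% of all tested genes, and 31 were at least 2-fold higher (a log2 fold change of at least 1) against 8.83%. Their median log2 fold change was 1.46, and that of all tested genes was 0.015. In 35 of 42 the lowest HRP2-KO value lay above the highest WT value, which held for 17% of all tested genes, and in 0 of 42 did the HRP2-KO values all lie below WT. The genes whose groups overlapped were Orc2, Orc3, Orc4, Orc5, Pcna, Pold3 and Rrm2.

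None of the 42 passed the threshold of 0.05 over all genes by the quasi-likelihood test of edgeR, with adjusted p from 0.0866 to 0.761. Of all tested genes 0% passed higher and 0.0073% lower. The knocked-out gene Hdgfl2, 6.92-fold lower, did not pass this test either (edgeR adjusted p = 0.0711). At an unadjusted p below 0.05 there were 33, all higher, against 12.7% of all tested genes. DESeq2 called 29 of the 42 higher and 0 lower, against 6.64% and 5.04% of its genes. Limma called 0 of 42 with voom, against 0.0511% of genes higher and 0.219% lower, and 0 of 42 on log2(TPM + 1), against 0.0474% and 0.284%. Without HRP2-KO replicate 7 edgeR called 33 of 42 higher, against 12.1% of all tested genes in the higher direction and 12% in the lower, with a median log2 fold change of 1.74. Without HRP2-KO replicate 44 the median was 1.07 and edgeR called 0 of 42, against 0% of all tested genes. It also called 0 of 42 without WT replicate 10, 11 or 12 or HRP2-KO replicate 6, where 0% of genes passed higher and 0.00718%, 0.00719%, 0.00716% and 0.00716% lower.

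HRP2-KO replicate 7 was the lowest HRP2-KO library in 38 of 42 genes, against 39.7% of all tested genes. It still lay above every WT library in 36 of 42, as it did in 33% of all tested genes. Its macrophage marker sum lay within the WT range. Replicate 44 was the highest of all 6 libraries in 36 genes (85.7%, against 29.3% of all tested genes). Replicate 6 was the highest in 4 (9.52%, against 13.6%), although its macrophage marker sum was lower than that of replicate 44 (1330 against 2620 CPM). Among the WT libraries replicate 10, which had the largest macrophage marker sum, was the lowest in 30 of 42 genes (71.4%, against 37.2% of all tested genes). In RNA from whole cultures, a smaller share of cells that express these genes and less of their RNA per cell cannot be told apart.

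**Figure D1:**
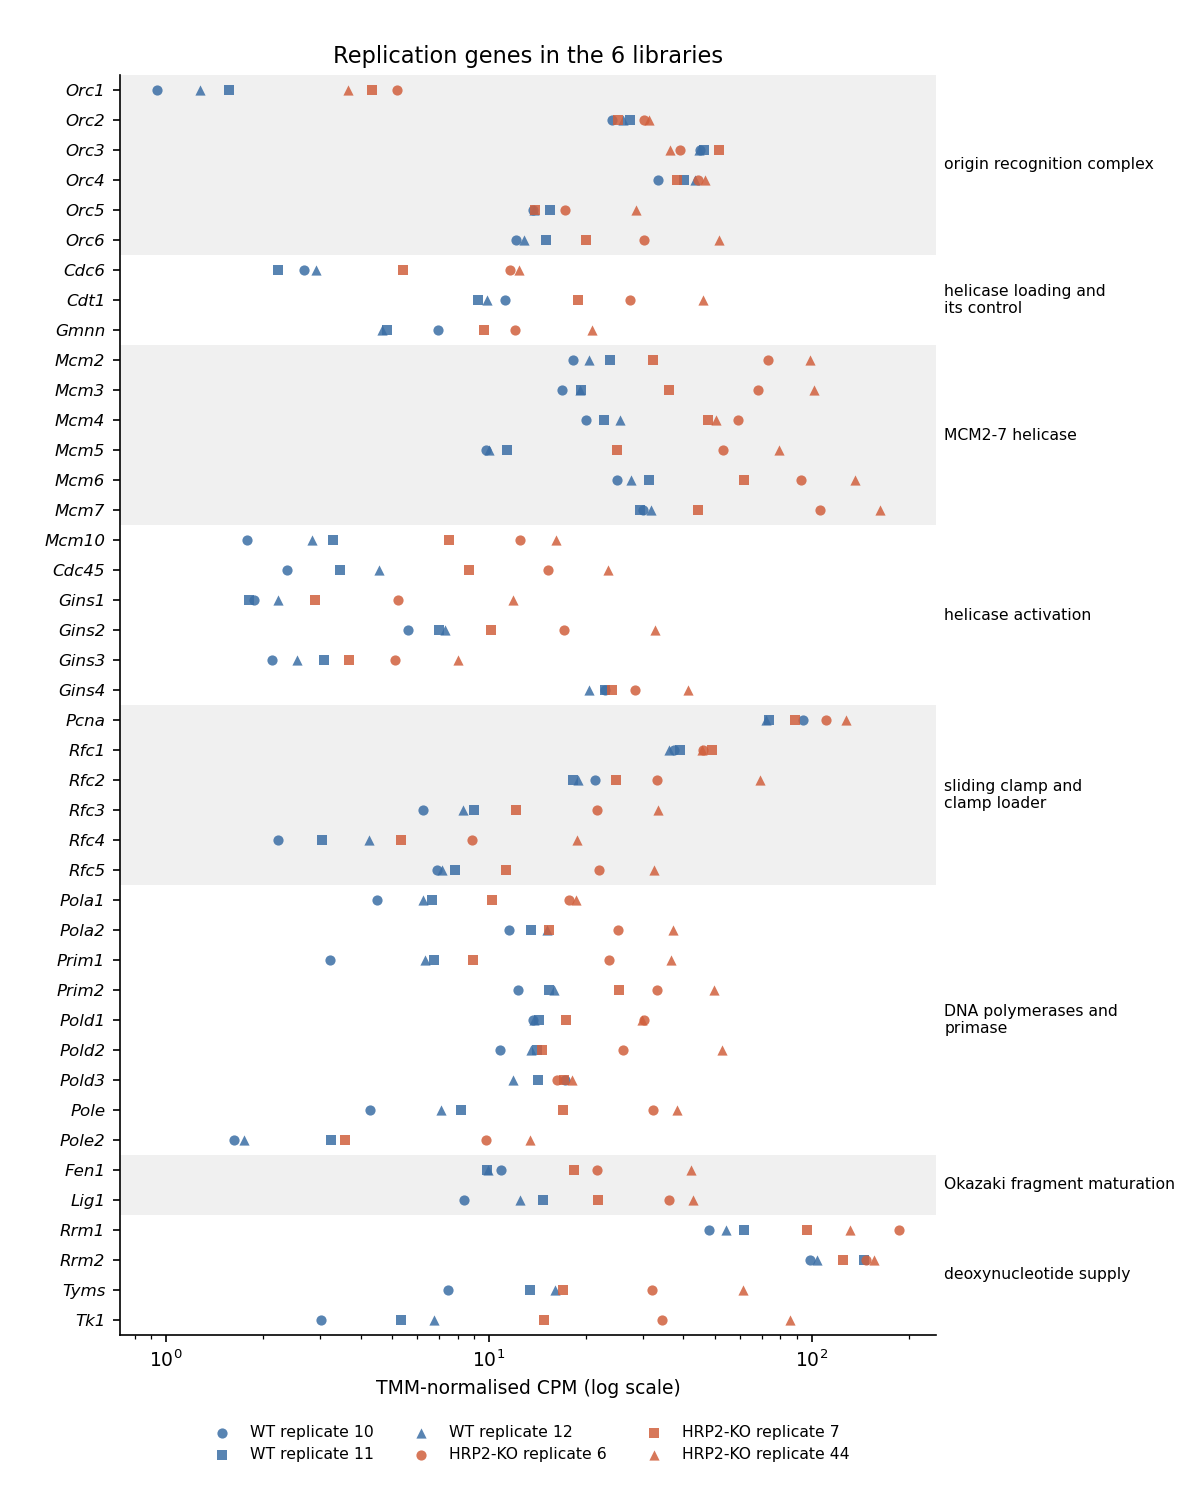
TMM-normalised CPM (log scale) of the 42 replication genes in each of the 6 libraries, in blue for WT and orange for HRP2-KO, with genes ordered by role on the vertical axis. The orange points lie to the right of all blue points in 35 of 42 genes, against 17% of all tested genes. Orc2 to Orc5, Pcna, Pold3 and Rrm2 are the genes where they mix.

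E2F sites were common in the promoters of these genes. Promoter windows of 300 bases, from 250 before to 50 after the transcript start, were available from RefSeq on GRCm38.p6 for 34 of the 42. They were searched on both strands for TTTCCCGC, TTTCGCGC, TTTGCCGC and TTTGGCGC, the forms of the E2F motif. At least 1 of these stood in 15 of 34 (44.1%), against 491 of 10909 tested genes with a window (4.5%). By role, 4 of 5 MCM2-7 genes held a site, as did both loading genes with a window (Cdc6 and Cdt1), 4 of 7 polymerase and primase genes and 0 of 4 genes of deoxynucleotide supply. In the other groups a site stood in 2 of 6 ORC genes, 1 of 3 of helicase activation, 1 of 5 of the clamp and loader and 1 of 2 of Okazaki fragment maturation. Of the members with a log2 fold change of at least 1, 12 of 24 with a window held a site, and of the others 3 of 10, namely Orc3, Pold1 and Pold3. A match describes these letters only, and no match says nothing about the factor.

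The promoters of Mcm6 and Rfc3, which belong to the helicase and the clamp loader, are shown because they held sites and led their groups by p among genes with one, from 150 bases before to 30 bases after the start, on the minus strand. Capitals mark the E2F matches, and in the first Mcm6 stretch TTTGGCGC overlaps TTTCGCGC read on the opposite strand.
Mcm6, chr1:128359676-128359855: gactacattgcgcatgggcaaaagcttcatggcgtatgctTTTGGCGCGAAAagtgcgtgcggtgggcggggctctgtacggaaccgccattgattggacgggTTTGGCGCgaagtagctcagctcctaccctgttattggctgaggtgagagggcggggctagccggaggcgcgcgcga
Rfc3, chr5:151651179-151651358: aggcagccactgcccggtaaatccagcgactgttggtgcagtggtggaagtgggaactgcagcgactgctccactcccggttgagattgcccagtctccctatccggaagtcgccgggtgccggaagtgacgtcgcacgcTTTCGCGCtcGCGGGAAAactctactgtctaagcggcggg
In Mcm6 the matches began 110, 106 and 47 bases before the start. The window of Cdc6 is not shown because its start lay 442 bases inside the annotated gene.

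Values by library follow in the order WT replicates 10, 11 and 12, then HRP2-KO replicates 6, 7 and 44. The ORC subunits divided by gene. Orc1, the largest subunit, which is degraded outside G1 in human cells (Entrez 18392, GRCm38.p6 chromosome 4, 108575705 to 108616030), was at 0.937, 1.57 and 1.27 CPM in WT and at 5.17, 4.33 and 3.67 CPM in HRP2-KO. Every HRP2-KO library was above every WT library, 3.47-fold higher by the fit (log2 fold change 1.80, standard error 0.35, edgeR adjusted p = 0.0982). Its counts were few, 19 in WT replicate 10. Orc6, the smallest subunit, was at 12.1, 15 and 12.8 CPM in WT and at 30.2, 20 and 51.4 CPM in HRP2-KO (log2 fold change 1.35, standard error 0.36, adjusted p = 0.131).

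The remaining ORC genes showed no such separation. Orc5 was at 13.7, 15.5 and 13.8 CPM against 17.2, 13.9 and 28.6 CPM, with HRP2-KO replicate 7 inside the WT range (log2 fold change 0.47, standard error 0.30, adjusted p = 0.379). Orc3 was at 45.1, 46.5 and 44.8 CPM against 39.2, 51.7 and 36.5 CPM, and it was the 1 gene of the 42 with a fitted value below 0 (log2 fold change -0.10, standard error 0.18, adjusted p = 0.761). Orc2 and Orc4 had log2 fold changes of 0.16 and 0.14, both with a standard error near 0.17 (0.17 and 0.18), and both turned below 0 on the scale of log2(TPM + 1), at -0.005 and -0.14. On that scale the median of all tested genes was -0.21, below both, against 0.015 by edgeR.

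Per transcript length, Orc1 was the least abundant ORC messenger in every library, at 0.763 ± 0.245 TPM (a level scaled by transcript length and depth) in WT and 2.53 ± 0.67 TPM in HRP2-KO (SD, n = 3 each). Orc3 was the most abundant in WT at 29.9 ± 2.94 TPM, and Orc6 was in HRP2-KO at 38.6 ± 13.95 TPM, though HRP2-KO replicate 7 alone had more Orc3. The mean log2 level of Orc1 and Orc6 relative to that of Orc2 to Orc5 was -1.87 ± 0.07 in WT and -0.84 ± 0.19 in HRP2-KO (log2(TPM + 1), SD, n = 3 each). This ratio sets the ORC genes that separated the groups against those that did not, so it describes that split and is no test of it.

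For all 3 genes that govern helicase loading the lowest HRP2-KO value exceeded the highest WT value, against 17% of all tested genes. Cdc6, the ATPase that recruits the ring, was at 2.66, 2.22 and 2.92 CPM in WT and at 11.7, 5.40 and 12.3 CPM in HRP2-KO (log2 fold change 1.91, standard error 0.39, adjusted p = 0.105). Cdt1, its partner in loading, was at 11.2, 9.28 and 9.84 CPM against 27.4, 18.8 and 46.0 CPM (log2 fold change 1.6, standard error 0.35, adjusted p = 0.109). Gmnn, the inhibitor of Cdt1, was at 6.96, 4.85 and 4.66 CPM against 12.1, 9.68 and 20.9 CPM (log2 fold change 1.37, standard error 0.37, adjusted p = 0.133). The licensing factor and its inhibitor were thus both higher, by similar fits. Their log2 ratio within a library was -0.28 ± 0.18 in WT and -0.11 ± 0.11 in HRP2-KO, the libraries overlapped, and the difference of 0.17 had an exact permutation p of 0.2.

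The 6 genes of the MCM2-7 ring all separated the groups, with HRP2-KO above WT, against 17% of all tested genes. Mcm4 had the smallest p of the 42 genes and varied least among the HRP2-KO libraries of the ring (Entrez 17217, chromosome 16, 15623897 to 15637400). It was at 19.9, 22.7 and 25.4 CPM in WT and at 58.9, 47.8 and 50.5 CPM in HRP2-KO, 2.31-fold higher (log2 fold change 1.21, standard error 0.18, adjusted p = 0.0866). Mcm6 was at 24.9, 31.3 and 27.6 CPM against 92.3, 61.6 and 136 CPM (log2 fold change 1.79, standard error 0.31, adjusted p = 0.0966). Mcm5 (Entrez 17218, chromosome 8, 75109468 to 75128439) was at 9.77, 11.4 and 9.98 CPM against 53.0, 25.0 and 79.4 CPM, the largest fitted difference of the ring at 5.05-fold (log2 fold change 2.34, standard error 0.42, adjusted p = 0.0970).

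Mcm7, the subunit with the largest p of the ring, was at 30, 29.3 and 31.7 CPM in WT and at 106, 44.4 and 163 CPM in HRP2-KO (log2 fold change 1.79, standard error 0.45, adjusted p = 0.122). The WT libraries lay close together, and the spread came from HRP2-KO, where replicate 7 was nearest to WT. Mcm2 and Mcm3 had log2 fold changes of 1.71 and 1.90 with the same order of the HRP2-KO libraries. Without replicate 7 all 6 passed the threshold (edgeR adjusted p from 0.0148 to 0.0169). In that fit 12.1% of all tested genes passed higher and 12% lower.

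The proteins of the ring are assembled in equal numbers, but their messengers were not equally abundant. The summed TPM of the 6 genes was 84.4, 107 and 100.2 in WT and 320.5, 159 and 343 in HRP2-KO. Mcm7 made up the largest part of that sum in WT at 28.7% ± 2.23 and Mcm5 the smallest at 6.94% ± 0.41 (SD, n = 3). In HRP2-KO the Mcm5 part was 9.92% ± 0.92, with no overlap between groups (6.48 to 7.28% against 8.92 to 10.7%). The Mcm3 part did not overlap either (14.39 to 14.87% against 15.35 to 16.68%). The parts share a sum and are not independent. The Mcm4 part was 13.8, 13.9 and 15.8% in WT and 10.8, 16.3 and 6.5% in HRP2-KO, where replicates 6 and 44 lay below the WT range and replicate 7 above it. The gap between the most and the least abundant subunit was 1.90 ± 0.14 on the log2 scale in WT and 1.72 ± 0.45 in HRP2-KO (exact permutation p of 0.5).

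**Figure D2:**
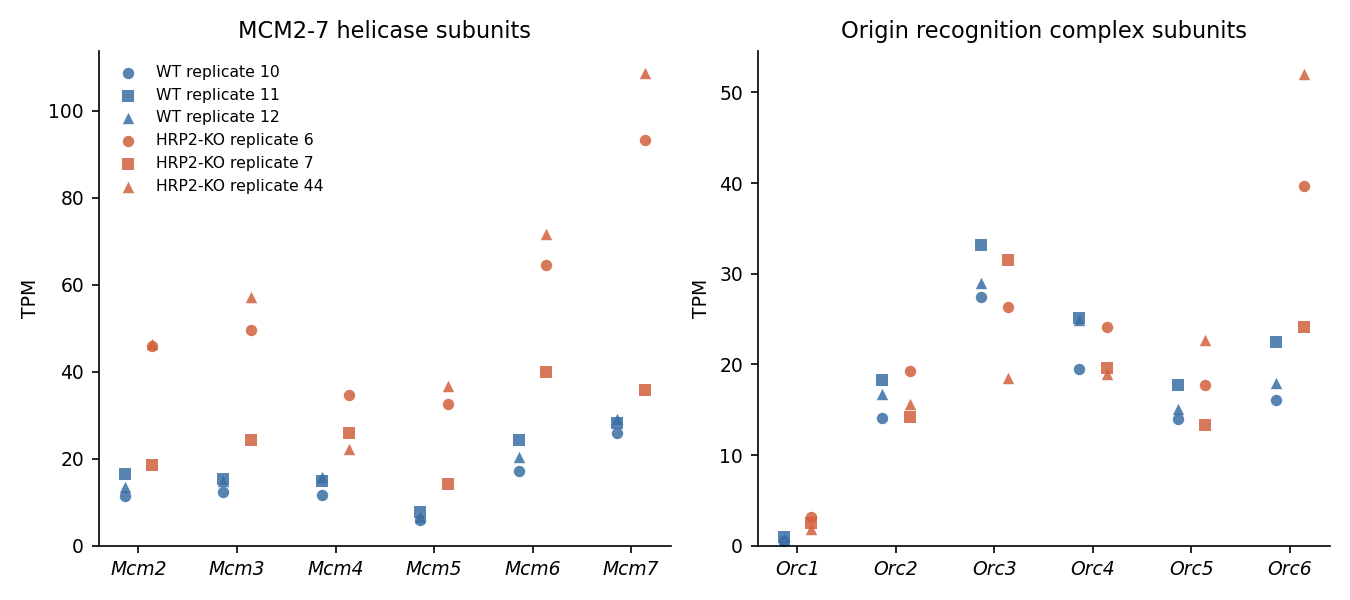
TPM of the subunits of the MCM2-7 ring and of the origin recognition complex in each library, in blue for WT and orange for HRP2-KO, with 1 symbol per replicate. Every MCM2-7 subunit is higher in each HRP2-KO library, whereas among the ORC subunits only Orc1 and Orc6 separate the groups.

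Genes that turn the loaded ring into a helicase were higher as well. Mcm10, which helps to start unwinding, was at 1.78, 3.28 and 2.83 CPM in WT and at 12.4, 7.54 and 16.2 CPM in HRP2-KO (log2 fold change 2.19, standard error 0.40, adjusted p = 0.0977). Cdc45, the helicase cofactor, was at 2.37, 3.46 and 4.57 CPM against 15.3, 8.67 and 23.3 CPM (log2 fold change 2.18, standard error 0.45, adjusted p = 0.107). Gins2 was at 5.62, 7.02 and 7.30 CPM against 17.0, 10.2 and 32.7 CPM (log2 fold change 1.59, standard error 0.45, adjusted p = 0.141). In these 3 genes the groups did not overlap, and HRP2-KO replicate 7 was the one nearest to WT. Of all tested genes 17% had every HRP2-KO library above WT.

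The GINS complex has 4 subunits, and their fitted differences were unequal. Gins1 and Gins3 had log2 fold changes of 1.76 and 1.12, and that of Gins1 was 1.04 without HRP2-KO replicate 44. Gins4 was at 22.8, 22.9 and 20.4 CPM in WT and at 28.2, 24.1 and 41.2 CPM in HRP2-KO, a log2 fold change of 0.50 with a standard error of 0.24 (adjusted p = 0.270). Gins4 was also the most abundant GINS messenger per length in WT at 36.8 ± 3.2 TPM, against 2.42 ± 0.597 TPM for Gins3.

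The clamp and its loader were split in the same way. Rfc5 was at 6.91, 7.85 and 7.16 CPM in WT and at 21.9, 11.3 and 32.5 CPM in HRP2-KO (log2 fold change 1.58, standard error 0.40, adjusted p = 0.12). Rfc3, whose promoter is shown above, was at 6.27, 9 and 8.29 CPM against 21.7, 12.1 and 33.3 CPM (log2 fold change 1.51, standard error 0.40, adjusted p = 0.130). Rfc4 was at 2.22, 3.05 and 4.24 CPM against 8.83, 5.35 and 18.8 CPM (log2 fold change 1.79, standard error 0.53, adjusted p = 0.153, and 1.15 without HRP2-KO replicate 44). These small subunits, with Rfc2 at a log2 fold change of 1.12, stood above WT in every HRP2-KO library, with replicate 44 highest each time. Of all tested genes 17% stood above WT in every HRP2-KO library, and 29.3% had replicate 44 highest.

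Rfc1, the large subunit of the loader, was at 36.2 to 39.1 CPM in WT and at 45.8 to 49.0 CPM in HRP2-KO. Its groups did not overlap, but the log2 fold change was 0.32 (standard error 0.14, adjusted p = 0.245). Pcna, the clamp itself and a common marker of dividing cells (Entrez 18538, chromosome 2, 132249286 to 132253180), was at 94.1, 73.9 and 72.3 CPM in WT and at 110, 88.4 and 128 CPM in HRP2-KO. HRP2-KO replicate 7 was below WT replicate 10, and the fitted change was 1.36-fold (log2 fold change 0.44, standard error 0.21, adjusted p = 0.268). The annotation lists the pseudogenes Pcna-ps1 and Pcna-ps2, which could share reads with it.

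Among the polymerases and primase 8 of 9 genes separated the groups, with HRP2-KO above WT, against 17% of all tested genes. Pole, the catalytic subunit of the leading-strand polymerase (Entrez 18973, chromosome 5, 110286319 to 110337468), was at 4.29, 8.17 and 7.11 CPM in WT and at 32.2, 17.0 and 38.3 CPM in HRP2-KO, 4.46-fold higher (log2 fold change 2.16, standard error 0.40, adjusted p = 0.0978). Prim2, the large primase subunit, was at 12.3, 15.4 and 15.9 CPM against 33.2, 25.3 and 49.7 CPM (log2 fold change 1.31, standard error 0.29, adjusted p = 0.109). Pola1, which extends primers, was at 4.49, 6.65 and 6.26 CPM against 17.7, 10.2 and 18.6 CPM (log2 fold change 1.42, standard error 0.32, adjusted p = 0.11). The small catalytic primase subunit Prim1 and the second Pole subunit Pole2 had log2 fold changes of 2.08 and 2.02, and Pola2 one of 0.95.

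Within the lagging-strand polymerase the subunits differed. Pold1, the catalytic subunit, and Pold2 had log2 fold changes of 0.89 and 1.29, which were 0.77 and 0.66 without HRP2-KO replicate 44, so their order depended on that library. Pold3 was at 17.2, 14.2 and 11.9 CPM in WT and at 16.3, 17.1 and 18.1 CPM in HRP2-KO, with both groups overlapping (log2 fold change 0.25, standard error 0.21, adjusted p = 0.486). Both enzymes that finish Okazaki fragments were above WT in every HRP2-KO library, against 17% of all tested genes. Fen1, the flap nuclease, was at 10.9, 9.83 and 9.94 CPM against 21.6, 18.4 and 42.2 CPM (log2 fold change 1.42, standard error 0.35, adjusted p = 0.119), and Lig1, the ligase, at 8.39, 14.7 and 12.5 CPM against 36.2, 21.7 and 43.0 CPM (log2 fold change 1.5, standard error 0.34, adjusted p = 0.11).

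Tk1, the thymidine kinase of S phase (Entrez 21877, chromosome 11, 117815519 to 117826087), had the largest fitted difference of the 42 genes. It was at 3.01, 5.36 and 6.73 CPM in WT and at 34.4, 14.8 and 85.7 CPM in HRP2-KO, 8.92-fold higher (log2 fold change 3.16, standard error 0.70, adjusted p = 0.11), and the log2 fold change was 2.28 without HRP2-KO replicate 44. Tyms, thymidylate synthase, was at 7.45, 13.4 and 16 CPM against 31.9, 17.0 and 61.2 CPM (log2 fold change 1.58, standard error 0.52, adjusted p = 0.177), and the log2 fold change was 0.98 without HRP2-KO replicate 44. Its replicate 7 value was close to WT replicate 12, and the annotation lists a pseudogene, Tyms-ps.

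The subunits of ribonucleotide reductase, the enzyme that makes deoxynucleotides, parted from each other. Rrm1, the large subunit, was at 47.9, 61.9 and 54.2 CPM in WT and at 186, 96.9 and 131 CPM in HRP2-KO, 2.53-fold higher (log2 fold change 1.34, standard error 0.28, adjusted p = 0.107). Rrm2, the small subunit that is made in S phase (Entrez 20135, chromosome 12, 24708254 to 24714146), was at 99.1, 145 and 104 CPM against 148, 125 and 156 CPM. Its HRP2-KO replicate 7 was below WT replicate 11, and the fitted change was 1.23-fold (log2 fold change 0.30, standard error 0.22, adjusted p = 0.426). The log2 ratio of Rrm2 to Rrm1 within a library was 1.93 ± 0.15 in WT and 0.97 ± 0.37 in HRP2-KO, lower in each HRP2-KO library (difference -0.96, exact two-sided permutation p of 0.1, the smallest that 3 against 3 allows). Rrm2b, the p53-induced small subunit, which was not among the 42, was at 20.8, 22.7 and 18.1 CPM against 11.7, 9.20 and 7.19 CPM (log2 fold change -1.13, standard error 0.25, adjusted p = 0.11).

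**Figure D3:**
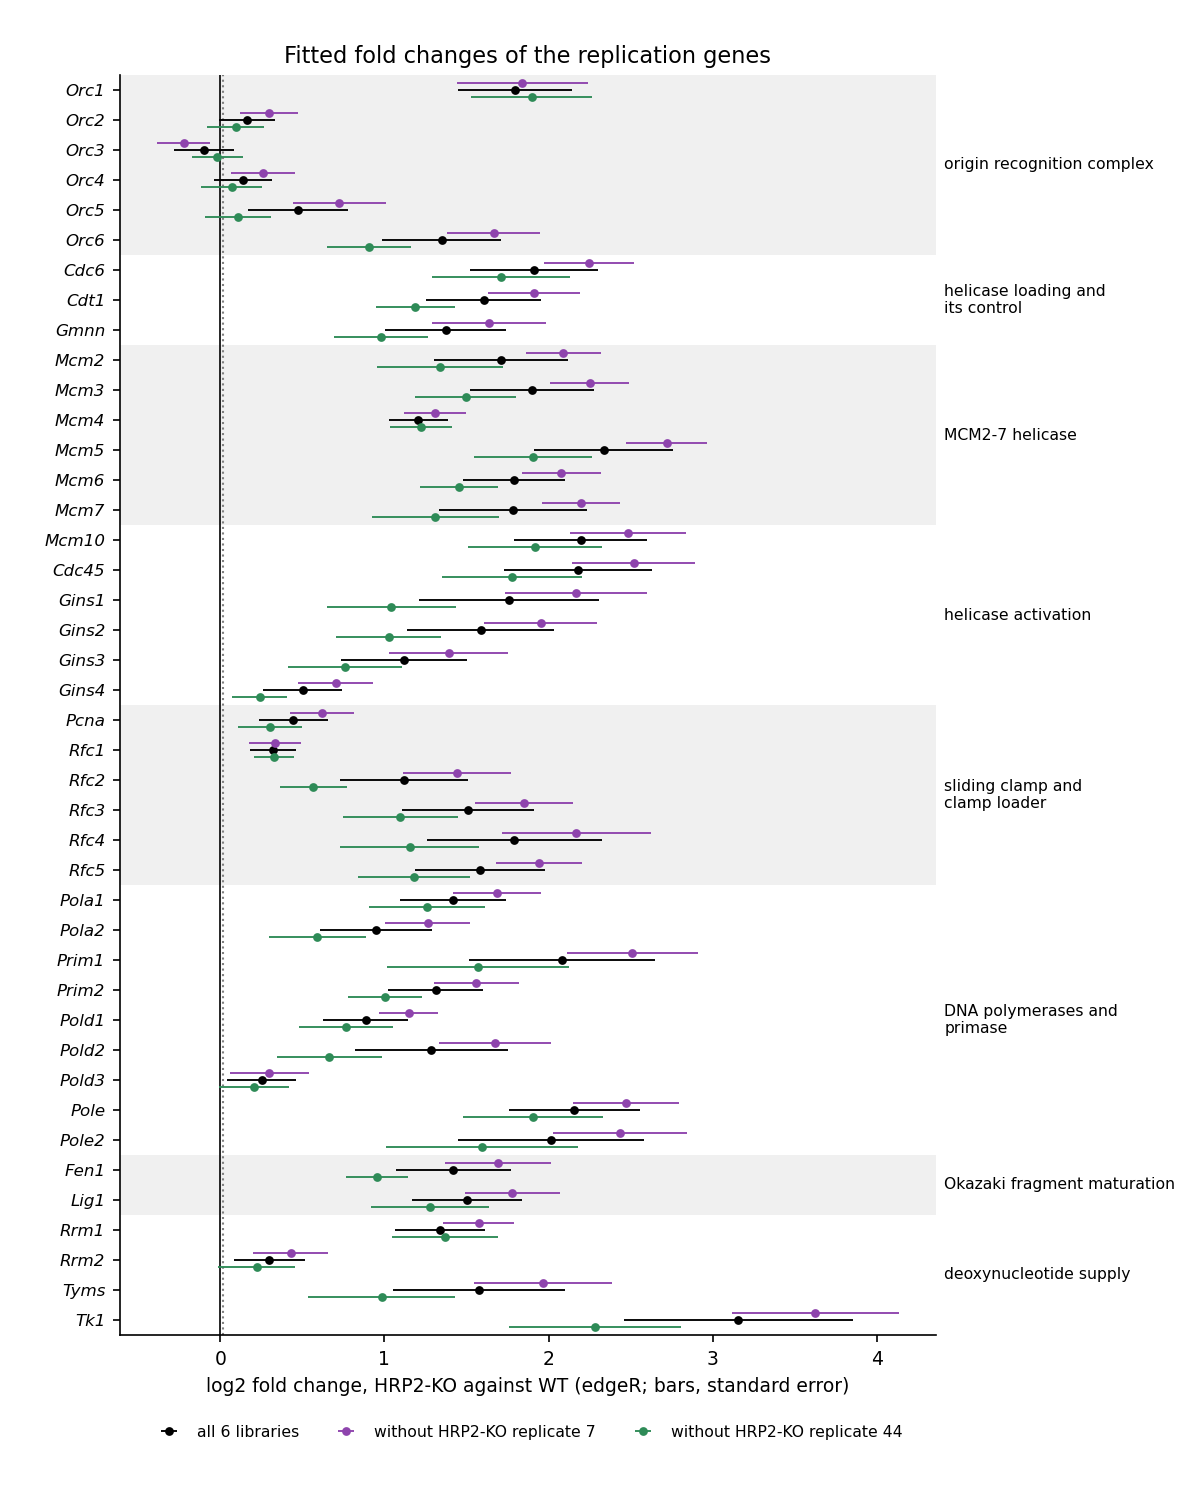
Fitted log2 fold changes of the 42 genes (edgeR, HRP2-KO against WT, horizontal axis) with standard errors, for all 6 libraries in black, without HRP2-KO replicate 7 in purple and without HRP2-KO replicate 44 in green. The dotted line marks the median of all tested genes at 0.015. Tk1 lies farthest to the right at 3.16 and Orc3 is the 1 gene below 0 with all libraries.

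Transcript length moved with the difference between HRP2-KO replicates 44 and 6 among these genes. Lengths taken from the deposited counts and FPKM values (fragments scaled by transcript length and depth) ranged from 0.93 kb for Gmnn to 7.08 kb for Pole. In the 15 genes under 2 kb replicate 44 was higher each time, by a median of 0.76 on the log2 scale, and in the 17 genes of 3 kb and over it was higher in 11, by a median of 0.07. All tested genes in the same length classes had medians of 0.44 and -0.28. Across the 42 genes, which share libraries and are not independent, log2 length and the difference correlated at r = -0.66. Without replicate 44 the median log2 fold change was 1.03 in the genes under 2 kb and 1.26 in those of 3 kb and over. Orc2, Orc3 and Orc4 were then at 0.09, -0.02 and 0.07.

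**Figure D4:**
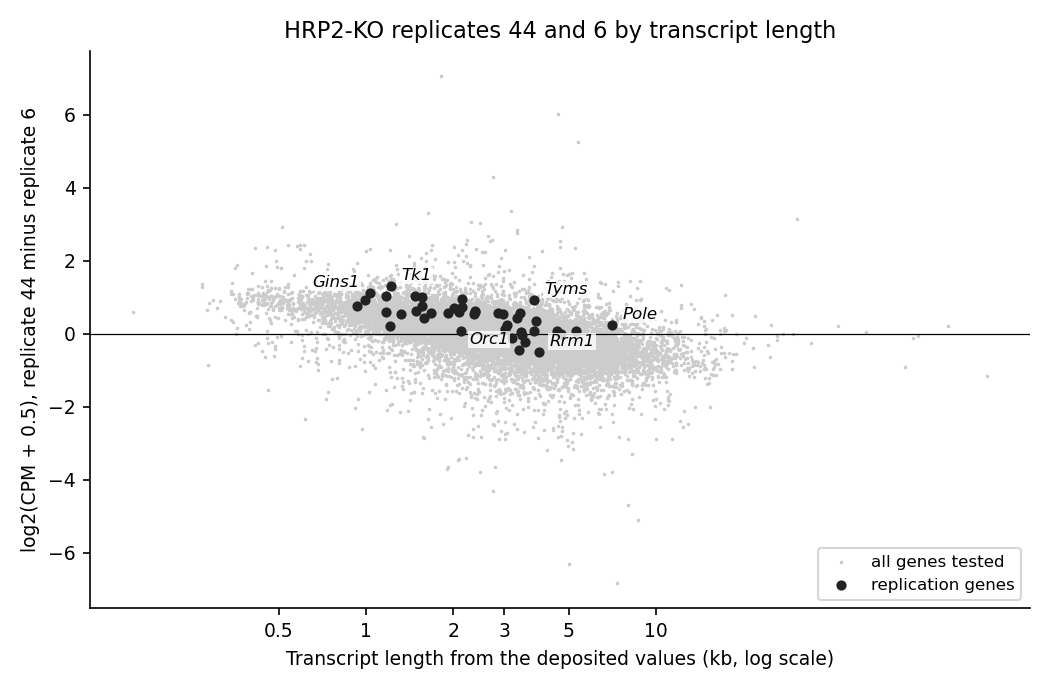
Difference in log2(CPM + 0.5) between HRP2-KO replicates 44 and 6 (vertical axis) against transcript length in kb (log scale), for all tested genes in grey and the 42 replication genes in black. Short replication genes such as Tk1 and Gins1 lie above 0, and Orc1 and Rrm1 below it.

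Other replication genes, 56 listed by their role, were also mostly higher. Of these, 47 had a log2 fold change above 0, with a median of 0.91. At an unadjusted p below 0.05 there were 31 higher and 4 lower, against 12.7% and 9.1% of all tested genes, and 0 passed over all genes in edgeR's test. Without HRP2-KO replicate 7, edgeR called 31 higher and 2 lower, against 12.1% and 12% of all tested genes. DESeq2 called 24 higher and 2 lower with all libraries, against 6.64% and 5.04%. The lower calls, 2 in each fit, are too few to read as a trait of the list.

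Among the firing factors, Mtbp, a partner of the treslin protein, was at 5.67, 7.76 and 6.88 CPM in WT and at 22.8, 15 and 19.1 CPM in HRP2-KO (log2 fold change 1.48, standard error 0.26, adjusted p = 0.0966). Dbf4, the activator of the Cdc7 kinase, was at 9.08, 13.4 and 12.2 CPM against 44.6, 23.0 and 47.0 CPM (log2 fold change 1.73, standard error 0.33, adjusted p = 0.0982). Donson had a log2 fold change of 0.03. This list of 10 genes also holds the kinase gene Cdc7 and the MCM-related genes Mcm8, Mcm9 and Mcmbp. Of the 10, 7 were higher at an unadjusted p below 0.05, against 12.7% of all tested genes.

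At the fork, Clspn, which carries the checkpoint signal, was at 2.57, 5.08 and 3.53 CPM in WT and at 20.8, 14.7 and 15.7 CPM in HRP2-KO (log2 fold change 2.19, standard error 0.33, adjusted p = 0.0913). Chtf18, of an alternative clamp loader, was at 2.71, 3.56 and 3.25 CPM against 13.9, 8.56 and 19.2 CPM (log2 fold change 2.13, standard error 0.36, adjusted p = 0.0966). Pole3 had a log2 fold change of 0.22. Of the 14 genes of this list 9 were higher and 0 lower at an unadjusted p below 0.05, against 12.7% and 9.1% of all tested genes.

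Top2a, the topoisomerase that untangles copied DNA, was at 9.13, 31.7 and 30.2 CPM in WT and at 176, 90.7 and 198 CPM in HRP2-KO (log2 fold change 2.71, standard error 0.55, adjusted p = 0.105), while Dck, of deoxynucleoside salvage, had a log2 fold change of 0.18. Genes that copy chromatin behind the fork were higher in 6 of 7 at an unadjusted p below 0.05, against 12.7% of all tested genes. Uhrf1, which guides DNA methylation onto new strands, was at 3.75, 8.68 and 8.15 CPM against 50.1, 21.4 and 77.0 CPM (log2 fold change 2.85, standard error 0.56, adjusted p = 0.0982). Asf1b, a histone chaperone, was at 3.11, 3.6 and 3.49 CPM against 14.6, 8.56 and 26.9 CPM (log2 fold change 2.30, standard error 0.45, adjusted p = 0.0982), and its relative Asf1a had a log2 fold change of 0.54 (adjusted p = 0.339).

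The E2F factors and pocket proteins that control these genes went both ways. At an unadjusted p below 0.05, 4 of 13 were higher and 3 lower, against 12.7% and 9.1% of all tested genes. E2f8, a repressor of the family, was at 1.88, 2.86 and 3.72 CPM in WT and at 23.4, 8.61 and 9.82 CPM in HRP2-KO (log2 fold change 2.30, standard error 0.50, adjusted p = 0.109), and E2f7, a like repressor, had a log2 fold change of 2.21 (adjusted p = 0.114). E2f1, an activator, was at 35.2, 39.8 and 33.6 CPM against 32.0, 33.0 and 44 CPM (log2 fold change 0.00, standard error 0.19, adjusted p = 0.992). The lower genes, named after their values were seen, were Rb1, Rbl2 and E2f6, with log2 fold changes of -1.07, -0.92 and -0.58. Rb1 and Rbl2 encode pocket proteins that restrain E2F targets, and their groups did not overlap (Rb1 at 59.2 to 76.6 CPM in WT and 22.6 to 42.6 CPM in HRP2-KO), as in 14% of all tested genes, which lay below WT. Rbl1, the third pocket protein, went the other way, at 15.2, 13.9 and 9.79 CPM against 26.3, 18.7 and 15.3 CPM (log2 fold change 0.63, standard error 0.29, adjusted p = 0.258), with HRP2-KO replicate 44 barely above WT replicate 10.

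A list of 16 mitosis genes gave a reference for the later part of the cycle. Its mean level relative to that of the MCM2-7 genes was -2.15, -1.16 and -1.29 on the log2(TPM + 1) scale in WT and -0.73, -0.78 and -0.86 in HRP2-KO. The mitosis genes were thus nearer to the MCM2-7 genes in every HRP2-KO library, by a mean of 0.74 (exact permutation p of 0.1, the smallest possible). Without WT replicate 10 the difference was 0.44, so that library decided much of its size. All 16 had WT replicate 10 as their lowest library, as did 19.8% of all tested genes, and the macrophage marker sum of WT replicate 10 was the largest of the 6. HRP2-KO replicate 44, with a larger macrophage marker sum than replicate 6, was the highest library in 14 of the 16, against 29.3% of all tested genes. The part of macrophage content in these ranks was not tested.

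**Figure D5:**
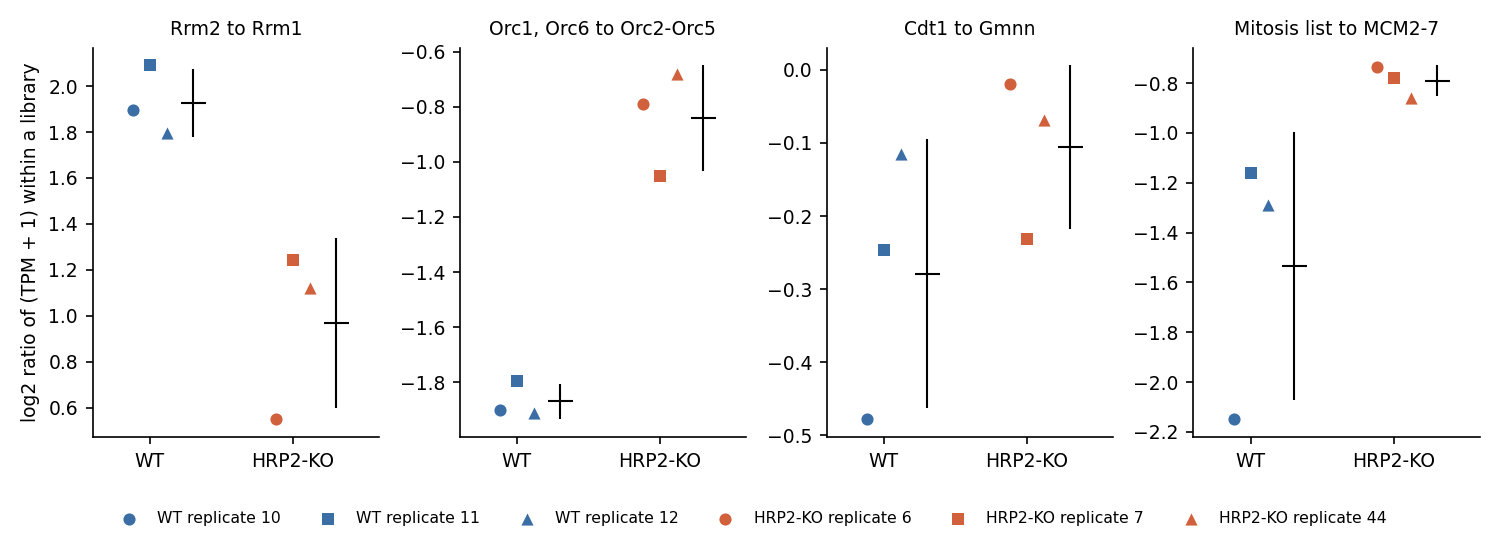
Log2 ratios of (TPM + 1) within each library for Rrm2 to Rrm1, Orc1 and Orc6 to Orc2 to Orc5, Cdt1 to Gmnn, and the mitosis list to the MCM2-7 genes. Points are libraries, and the bars are the mean and SD of 3. The groups are apart in all but the Cdt1 to Gmnn ratio.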

How the data were processed

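RNA of 6 BMSC samples was sequenced from libraries made with the provider's standard protocol, per the labels' protocols. The submitters' processing notes name BWA and GRCm38.p6. With the counting program and strand setting not given in the sources used here, genes that overlap another gene, as 12 of the 42 do on the opposite strand in GENCODE M21, and genes with pseudogenes (Pcna, Tyms) are uncertain. The authors deposited estimated counts per gene, TPM values and FPKM values in 1 table, per the file headers; 30 other columns were not used. Estimated counts were rounded, filtered with filterByExpr (minimum count 10, minimum total 15) and fitted with edgeR 4.0.16 (TMM factors 0.906 to 1.07, quasi-likelihood F-test on genotype, two-sided, Benjamini-Hochberg over 13696 genes, threshold 0.05; R 4.3.3). All 42 genes had counts in every library, and no intervals are given. The standard errors are those of the fits. Libraries of a group differed beyond counting noise (chi-square per degree of freedom at least 49.9). Ratios within a library used log2(TPM + 1) and exact permutation tests (scipy 1.17.1). Alternatives were RLE and upper-quartile factors, other filters, DESeq2 1.42.0, limma 3.58.1 (voom, and log2 TPM with pseudocounts of 1 and 0.1) and leaving out each library. On simulated counts for HRP2-KO against WT over 13510 genes edgeR recovered 2%, 50%, 90% and 98% of genes changed 2-fold, 4-fold, 8-fold and 16-fold, with 3 false calls. The changed genes were drawn only from those above the median CPM, and noise was drawn separately for each gene. The rates therefore need not hold for members with few counts, such as Orc1, or for shifts of a whole library. The members, gene lists and tests were chosen with earlier results of these data known. Within each role group the 3 genes with the smallest p and the 1 with the largest are given in full, and in each list of other genes 2 and 1. Promoter sequences are RefSeq's on GRCm38.p6. Figures were drawn with matplotlib 3.10.9.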

Additional observations from a re-analysis of the deposited data

How the results depend on the processing

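No paired analysis was possible because the WT samples (10, 11 and 12) and the HRP2-KO samples (6, 7 and 44) share no replicate number. With DESeq2, 1579 genes were called in all, 29 of the 42 replication genes and 26 of the 56 other replication genes, against 1, 0 and 0 with edgeR. Limma called 37 genes with voom, 42 on log2(TPM + 1) and 27 on log2(TPM + 0.1), with 0 of the 42 among them. Leaving out 1 library gave 0 to 3370 genes in all, 0 to 33 of the 42 and 0 to 33 of the 56, and the high values came without HRP2-KO replicate 7. The count of replication genes whose groups do not overlap was 27 to 41 over the alternatives run, against 35, and 27 with TPM. The 41 came without HRP2-KO replicate 7, and groups separate more easily with 1 library fewer. The share of all tested genes, 17% above WT and 14% below it with all libraries, was not taken for the alternatives. The median log2 fold change of the 42 was 1.02 on log2(TPM + 1), a scale on which the median of all tested genes was -0.21, and lay between 1.07 and 1.74 when 1 library was left out. Orc2 and Orc4 turned below 0 with TPM, Orc2 at -0.005 with a pseudocount of 1 and -0.006 with 0.1, and Orc4 at -0.14 and -0.15; the cause was not tested. The group differences of all ratios within a library kept their sign under each alternative run. Where the groups did not overlap, leaving out 1 library could not change the sign, so it was no check there. This holds for Rrm2 to Rrm1, Orc1 and Orc6 to Orc2 to Orc5, and the mitosis list to MCM2-7. Leaving out 1 library moved the difference of Cdt1 to Gmnn between 0.07 and 0.26.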
